A study of Mus musculus with 22 samples.

Results

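Messenger RNA levels of the EGF receptor family and its ligands were followed while mouse fibroblasts were turned into neural progenitor cells. The 10 genes are the receptors Egfr, Erbb2, Erbb3 and Erbb4 and the ligands Egf, Hbegf, Areg, Ereg, Nrg1 and Tgfa, chosen by symbol from the 22518 genes in the deposited expression tables. The series holds 22 RNA-seq libraries in 11 groups of 2, all from the C57BL/6 strain. In 7 groups, cultures of mouse embryonic fibroblasts (MEFs) had been under direct induction towards progenitors for 1, 4, 7, 10, 14, 17 or 21 days. The other groups were the primary clusters that resemble neurospheres (pre-NPCs), an established induced line at passage 6 (giNPC P6), progenitors taken from neonatal brain (Brain-NPCs) and teratoma. The labels call giNPC P6 an established cell line, so its 2 libraries may show only 1 line. Which agents induced the cells, what the teratoma was grown from, and whether replicate libraries are separate cultures is not stated in the labels, so p-values measure the spread between libraries, which may be technical. Day 1 of induction was the earliest reference.

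ErbB receptors are membrane tyrosine kinases that pair up when a ligand binds and then signal through the Ras-ERK and PI3K cascades. EGFR (ErbB1) binds EGF, TGF-alpha, amphiregulin, epiregulin and HB-EGF, ErbB3 and ErbB4 bind neuregulins, ErbB4 also binds HB-EGF and epiregulin, and ErbB2 has no known ligand of its own and serves as a partner. The ligands are made as membrane-anchored precursors that proteases release. EGF is a standard mitogen in the culture of neural progenitors, and ErbB4 and neuregulins are known from neurons and glia in the developing brain.

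Levels are given as FPKM, a fragment count divided by the length of the transcript and the size of the library, which can be compared between genes. Differences between groups are given on the log2(FPKM + 1) scale with their standard error (SE). A gene was called changed when limma gave an adjusted p (Benjamini-Hochberg, over all 15659 genes tested) under 0.05 and the difference was at least 1 on this scale. Of the 10 genes, 9 passed the filter of at least 1 FPKM in at least 2 libraries. Egf did not, and Erbb3 passed only through the teratoma libraries. The raw counts, tested with edgeR over 14292 genes, are cited where they give another call.

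Between 3084428 and 9689996 reads per library were counted in transcripts. Replicates correlated with Spearman's rho of 0.971 to 0.992 over genes, but their counts differed most, beyond sampling, in giNPC P6 and on day 4. Each label was set against marker genes. Of 8 neural progenitor markers, 3 had a mean of at least 1 FPKM on day 1, when Nes was already at 25.2 and 22.9 FPKM while Sox2 was at 0.161 and 0.501 FPKM and Hes5 at 0. All 8 did in Brain-NPCs, with Sox2 at 151 and 165 FPKM. The sum of 8 fibroblast markers was 4530 to 4608 FPKM on day 1, 204 to 242 FPKM on day 17 and 21.0 to 21.8 FPKM in giNPC P6. The sum of 8 macrophage markers, which include Csf1r and Lyz2, was 783 to 797 FPKM on day 1, 12240 to 12550 FPKM on day 7, 260 to 305 FPKM on day 17 and 2.05 to 20.7 FPKM in giNPC P6, where Aif1 and Ptprc were at 0. All 8 had a mean of at least 1 FPKM from day 1 to day 14. In bulk samples such as these, fewer cells of a type and less RNA per cell cannot be told apart. The median of all genes tested also shifted on the FPKM scale, by 0.24 on day 10, 0.20 on day 14, 0.14 on day 17, 0.12 on day 21 and 0.11 in giNPC P6, each against day 1, and by 0.18 in teratoma against giNPC P6. Differences below should be read relative to these shifts.

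**Figure D1:**
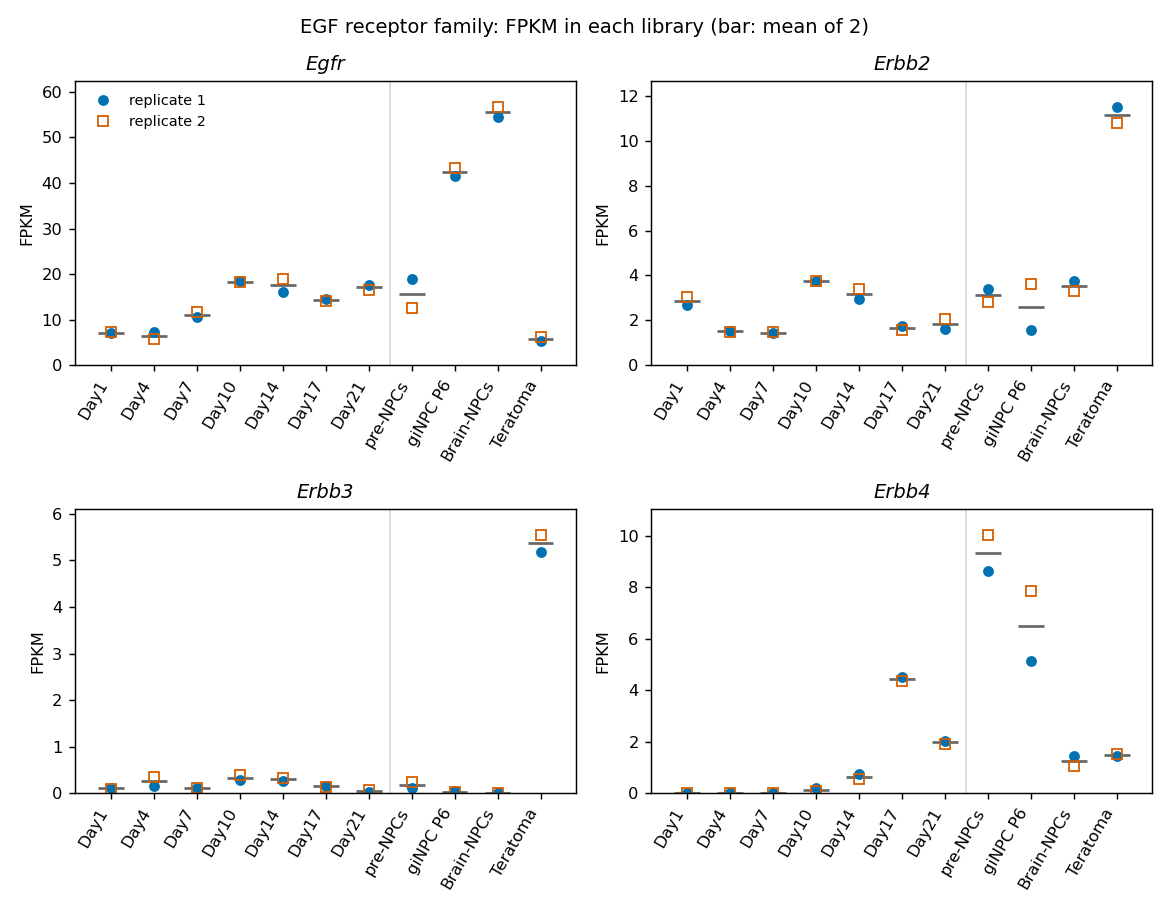
FPKM of the 4 receptors (vertical axes, linear, each with its own scale) in the 11 groups (horizontal axes). Circles are replicate 1, open squares replicate 2 and the short lines their mean. Egfr is highest in Brain-NPCs and giNPC P6, Erbb4 in pre-NPCs, and Erbb2 and Erbb3 in teratoma, where Erbb3 reaches 5.19 and 5.56 FPKM and is at most 0.386 FPKM elsewhere.

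Egfr, the receptor for most of these ligands, was present throughout and highest in giNPC P6 and Brain-NPCs. It lies on chromosome 11 (16652206 to 16813910, mm9). Its level was 7.06 and 7.36 FPKM on day 1, 7.30 and 5.81 FPKM on day 4, and 10.6 and 11.7 FPKM on day 7. From day 10 to day 21 the 8 induction libraries lay between 14.1 and 19.0 FPKM, and all of them were above the day 1, 4 and 7 libraries. The pre-NPCs had 18.9 and 12.6 FPKM, a range that overlaps these days. It was 41.5 and 43.2 FPKM in giNPC P6 and 54.6 and 56.7 FPKM in Brain-NPCs, and these 4 libraries stood above all others. The difference between giNPC P6 and pre-NPCs was 1.40 ± 0.147 (SE; adjusted p = 4.23e-06), a 2.69-fold higher mean. Against day 1, Egfr was 5.87-fold higher in giNPC P6 and 7.71-fold higher in Brain-NPCs. giNPC P6 and Brain-NPCs did not overlap, but their difference of -0.38 ± 0.147 (adjusted p = 0.0479) was below the size called. Teratoma, with 5.35 and 6.25 FPKM, had 7.30-fold less Egfr than giNPC P6.

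The rise of Egfr during induction was close to the threshold. On day 10 the difference from day 1 was 1.24 ± 0.147 (adjusted p = 7.88e-06), on day 14 it was 1.17 and on day 21 it was 1.14, and all were called. On day 17 it was 0.90 (adjusted p = 9.27e-05), under the size called, and edgeR gave a log2 fold change of 0.53 (adjusted p = 0.0352). By edgeR on counts the log2 fold changes of days 10, 14 and 21 were 0.86, 0.80 and 0.75. With quantile normalisation the differences of these days were 0.83, 0.83 and 0.88. All are positive with an adjusted p under 0.05 and less than 2-fold. The counts hold fewer Egfr reads than its FPKM implies, at 0.6 of the expected number against 0.961 to 1.17 for the other 9 genes. Egfr has 2 transcripts in the tables, of 5965 and 2678 bases, and reads that fall in both were left uncounted. The shorter transcript made up 13.0% to 33.0% of Egfr FPKM over the 22 libraries.

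The promoters of 4 genes with large changes are shown here, Egfr, Erbb4 and Tgfa because they rose and Areg because it fell. They are RefSeq sequences of build GRCm38.p6, a later build than the mm9 of the expression tables, from 250 bases before to 50 bases after the start of transcription, 5′ to 3′ on the strand of the gene, and 6 of the 10 genes matched the table. Capitals mark matches to 6 motifs sought on both strands. These were AP-1 (TGANTCA, in 7.81% of 32851 mouse promoters of this length), the cyclic AMP response element or CRE (TGACGTCA, 1.79%), its shorter core (TGACG, 20.8%), the GC box (GGGCGG, 35.7%), the TATA box (TATAAA, 13.6%) and a SOX motif (ATTGTT, 10.7%). The CRE contains this core on both strands.
Egfr, chr11:16751953-16752252, plus strand: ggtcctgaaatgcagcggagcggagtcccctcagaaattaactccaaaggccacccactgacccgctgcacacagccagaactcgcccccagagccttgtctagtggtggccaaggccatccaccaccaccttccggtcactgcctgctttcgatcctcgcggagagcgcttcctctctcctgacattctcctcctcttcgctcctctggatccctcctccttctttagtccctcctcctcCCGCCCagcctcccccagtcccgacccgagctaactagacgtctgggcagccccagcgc
Erbb4, chr1:69108010-69108309, minus strand: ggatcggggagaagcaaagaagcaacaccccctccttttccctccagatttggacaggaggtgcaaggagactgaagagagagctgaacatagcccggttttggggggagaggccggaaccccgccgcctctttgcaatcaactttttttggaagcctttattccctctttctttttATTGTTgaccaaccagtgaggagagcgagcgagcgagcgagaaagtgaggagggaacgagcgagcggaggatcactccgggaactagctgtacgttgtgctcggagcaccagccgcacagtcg
Areg, chr5:91139349-91139648, plus strand: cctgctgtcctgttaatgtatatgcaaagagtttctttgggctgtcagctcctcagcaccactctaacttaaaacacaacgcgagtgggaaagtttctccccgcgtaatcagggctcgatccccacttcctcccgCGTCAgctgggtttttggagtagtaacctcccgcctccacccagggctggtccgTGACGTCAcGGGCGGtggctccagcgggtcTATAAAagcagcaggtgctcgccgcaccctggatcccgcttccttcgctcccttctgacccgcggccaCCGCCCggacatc
Tgfa, chr6:86194972-86195271, plus strand: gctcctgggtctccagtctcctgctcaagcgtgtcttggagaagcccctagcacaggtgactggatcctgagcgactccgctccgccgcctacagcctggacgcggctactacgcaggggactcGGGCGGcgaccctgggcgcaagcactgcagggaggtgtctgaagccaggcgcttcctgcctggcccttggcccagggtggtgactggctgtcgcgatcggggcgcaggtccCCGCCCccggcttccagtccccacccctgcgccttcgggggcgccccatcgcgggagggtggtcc
The Areg window holds a CRE that begins 61 bases before the start site, a TATA box 31 bases before it, 2 GC boxes and 1 core outside the CRE. The Egfr window holds 1 GC box, the Tgfa window 2 GC boxes and the Erbb4 window 1 SOX match. None of these 4 windows holds the AP-1 letters. G and C make up 62.3% of the Egfr window, 55.3% of Erbb4, 59.3% of Areg and 70.7% of Tgfa, against a median of 52.7% over all promoters.

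Erbb4, a neuregulin receptor, appeared between day 10 and day 17 and peaked in pre-NPCs. The gene spans 68086540 to 69154633 on chromosome 1 (mm9). It had 1 read in each day 1 library and none in the day 4 and day 7 libraries. Its level was 0.180 and 0.0650 FPKM on day 10, 0.740 and 0.545 FPKM on day 14, 4.53 and 4.35 FPKM on day 17, and 2.03 and 1.92 FPKM on day 21. These 4 days did not overlap each other. On day 14 limma gave differences of 0.70 from day 1 and 0.55 from day 10, under the size called, while edgeR called Erbb4 higher than on day 10 (log2 fold change 2.41, adjusted p = 0.00173, with 16.0% of all genes called) and than on day 1 (adjusted p = 0.000133), against 1 read in each day 1 library. The day 17 level was 1.73 ± 0.137 above day 14 (adjusted p = 3.31e-07) and 2.43 ± 0.137 above day 1 (adjusted p = 1.37e-09). From day 17 to day 21 it differed by -0.87 (adjusted p = 0.000407), which is under the size called, while edgeR called the fall (log2 fold change -1.05, adjusted p = 0.047, with 7.19% of all genes called). The pre-NPCs, at 8.65 and 10.1 FPKM, were 1.79 ± 0.137 above day 21 (adjusted p = 2.60e-07).

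Erbb4 was also the only one of the 10 genes called between giNPC P6 and Brain-NPCs. It was 5.14 and 7.85 FPKM in giNPC P6 and 1.45 and 1.07 FPKM in Brain-NPCs. The groups did not overlap, the mean was 5.16-fold higher in giNPC P6, and the difference was 1.71 ± 0.137 (adjusted p = 5.25e-07). edgeR gave a log2 fold change of 2.63 (adjusted p = 1.19e-05). Of all genes tested 4.6% were called higher and 5.38% lower in this comparison, 9.98% in all, so 1 call among 9 tested genes is about the background share. Lists of other brain cell types were read in both groups. The sum of 7 neuron markers was 146 to 217 FPKM in giNPC P6 and 84.6 FPKM in both Brain-NPC libraries. Most of it was Map2, at 159 and 130 FPKM in giNPC P6 and 65.8 and 65.0 FPKM in Brain-NPCs. Of the 7, 6 had a mean of at least 1 FPKM in giNPC P6 and 4 in Brain-NPCs. Dcx was 20.4 and 1.14 FPKM in the giNPC P6 libraries, and Stmn2 was under 1 FPKM in both groups. The sum of 6 astrocyte markers was 1004 to 1180 FPKM in giNPC P6 and 1577 to 1591 FPKM in Brain-NPCs. The part of these cell types in the Erbb4 difference was not tested. Teratoma, with 1.43 and 1.54 FPKM, overlapped Brain-NPCs.

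Erbb2, the partner receptor, stayed under 4 FPKM outside teratoma. It lies on chromosome 11 (98273798 to 98299030, mm9). Its level was 2.69 and 3.03 FPKM on day 1, 1.43 and 1.48 FPKM on day 7, and 3.74 and 3.75 FPKM on day 10. The day 7 libraries were below those of both other days, with a difference from day 1 of -0.65 ± 0.186 (adjusted p = 0.0127), under the size called, while edgeR called it (log2 fold change -1.40, adjusted p = 0.0122). In giNPC P6 the 2 libraries stood apart, at 1.59 and 3.63 FPKM, and their range takes in both day 1 libraries. In teratoma Erbb2 was 11.5 and 10.8 FPKM, 4.28-fold above giNPC P6 with a difference of 1.81 ± 0.186 (adjusted p = 6.18e-07).

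Erbb3, a neuregulin receptor whose own kinase is weak, was seen in teratoma and near the floor elsewhere. It lies on chromosome 10 (128006424 to 128026557, mm9). Teratoma had 5.19 and 5.56 FPKM, from 342 and 337 reads. No other library had more than 22 reads, and giNPC P6 and Brain-NPCs had 0 reads in all 4 libraries, where a count of 0 allows up to 3 reads. Because Erbb3 entered the test only through teratoma, it had to differ there, and its difference from giNPC P6 of 2.62 ± 0.0835 (adjusted p = 7.87e-13) is given as a description. The 8 epithelial markers, among them Epcam and Krt8, summed to 907 to 919 FPKM in teratoma with all 8 at 1 FPKM or more, and to at most 42.4 FPKM in any other library. Krt8 was 121 and 120 FPKM in teratoma and 0 in giNPC P6. The part of epithelial cells in the teratoma levels of Erbb2 and Erbb3 was not tested.

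**Figure D2:**
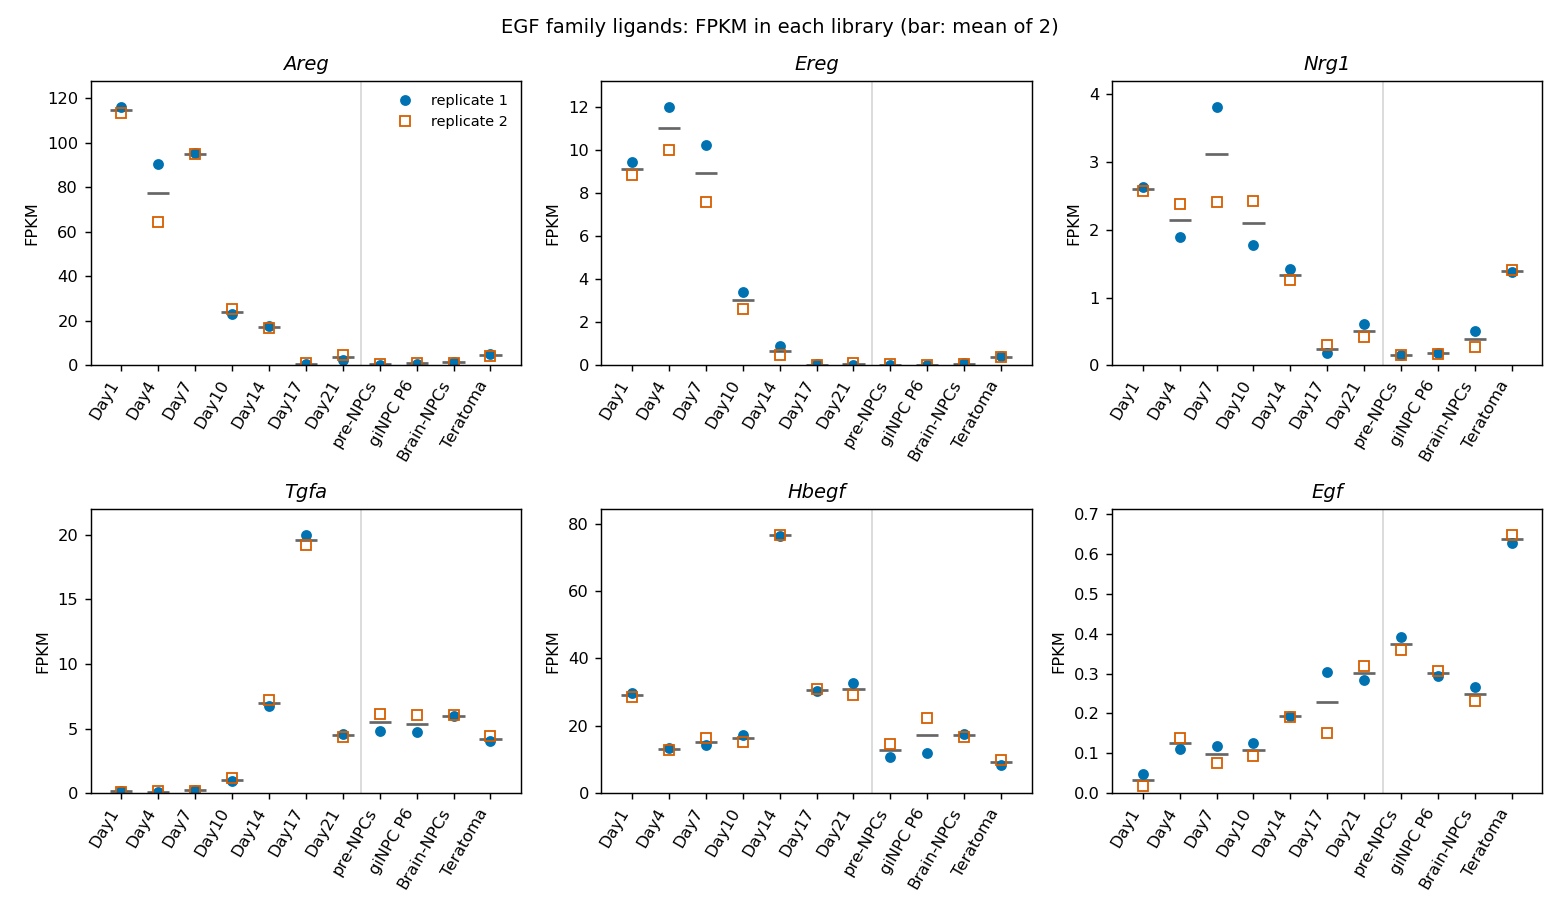
FPKM of the 6 ligands (vertical axes, linear, each with its own scale) in the 11 groups (horizontal axes), drawn as for the receptors with circles for replicate 1, open squares for replicate 2 and lines for the mean. Areg and Ereg are high on days 1 to 7 and low from day 17, Hbegf peaks on day 14 at 76.5 and 76.8 FPKM, and Tgfa on day 17 at 20.02 and 19.2 FPKM.

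Mean mRNA was highest on day 1 for Areg, day 4 for Ereg and day 7 for Nrg1. It was highest on day 14 for Hbegf, on day 17 for Tgfa and in teratoma for Egf. By limma, Ereg on day 4 differed from day 1 by 0.24 (adjusted p = 0.264). Nrg1 on day 7 differed from day 1 by 0.17 (adjusted p = 0.407), so these early peaks were not set apart from day 1. Hbegf was already at 29.8 and 28.6 FPKM on day 1. Areg, which encodes amphiregulin, was the most abundant of the 10 genes on day 1. Areg lies on chromosome 5 (91568641 to 91577458, mm9) and had 116 and 113 FPKM on day 1. On day 4 it was 90.6 and 64.6 FPKM and on day 7 it was 95.6 and 94.8 FPKM, lower than day 1 in every library but not called. It was 22.9 and 25.3 FPKM on day 10 and 17.7 and 17.0 FPKM on day 14. On day 17 it was 0.426 and 1.05 FPKM. The first large step was between day 7 and day 10, and the difference from day 1 was then -2.21 ± 0.23 (adjusted p = 2.12e-06), a 4.76-fold lower mean. The second was between day 14 and day 17, with a difference of -3.42 ± 0.23 (adjusted p = 7.08e-08).

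On day 21 Areg was 2.39 and 4.76 FPKM, both above the day 17 libraries. The difference from day 17 was 1.37 ± 0.23 (adjusted p = 0.000646), but without replicate 2 of day 21 it was 0.99 (adjusted p = 0.00982), under the size called. Areg was lower again in pre-NPCs, at 0.392 and 0.712 FPKM, by 1.52 ± 0.23 relative to day 21 (adjusted p = 0.000107). In giNPC P6 it was 0.807 and 1.18 FPKM and in Brain-NPCs 1.52 and 1.11 FPKM, and these overlapped. Brain-NPCs had 87.6-fold less Areg than day 1. In teratoma it was 4.96 and 4.43 FPKM, called higher than giNPC P6 by 1.52 ± 0.23 (adjusted p = 3.68e-05), but by 0.37 (adjusted p = 0.173) with quantile normalisation.

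Ereg, which encodes epiregulin, lies beside Areg on chromosome 5 (91503643 to 91522675, mm9). It was 9.42 and 8.84 FPKM on day 1, 11.99 and 9.99 FPKM on day 4 and 10.2 and 7.57 FPKM on day 7. These libraries overlapped between day 1 and day 7 and all exceeded those of later days. On day 10 Ereg was 3.42 and 2.60 FPKM, a difference from day 1 of -1.34 ± 0.141 (adjusted p = 2.26e-06). On day 14 it was 0.883 and 0.464 FPKM, 13.5-fold below day 1. From day 17 on, no induction or progenitor library had more than 4 Ereg reads, against 459 and 396 on day 1. Against the 34 and 16 reads of day 14, the 1 and 0 reads of day 17 were called lower by edgeR (adjusted p = 4.9e-05, with 16.6% of all genes called), while limma gave -0.70. Teratoma had 15 and 17 reads, called higher by edgeR than the 1 and 0 reads of giNPC P6 (adjusted p = 0.000631), while limma gave 0.46. Areg and Ereg thus both passed the test as lower on days 10, 14, 17 and 21 and in giNPC P6 and Brain-NPCs. These comparisons share the day 1 libraries and are not independent of each other.

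The fibroblast marker sum fell over the same days, from 4530 to 4608 FPKM on day 1 to 2018 to 2135 FPKM on day 10 and 204 to 242 FPKM on day 17. Teratoma had 1955 to 1996 FPKM of these markers. The macrophage sum rose from day 1 to day 7 and was 4646 to 4783 FPKM on day 10, when Areg and Ereg were already lower. Most of this sum was Lyz2, at 10850 and 10310 FPKM on day 7 and 3651 and 3556 FPKM on day 10. Of the other markers, Cd68, Tyrobp and Ptprc were also lower on day 10 than on day 7. Emr1 and Itgam were higher in both libraries, and Csf1r and Aif1 overlapped. The part of fibroblasts and macrophages in the fall of the 2 ligands was not tested.

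Hbegf, which encodes HB-EGF, showed a fall, a peak and a return. It lies on chromosome 18 (36664581 to 36675459, mm9). Its level was 29.8 and 28.6 FPKM on day 1, 13.3 and 12.7 FPKM on day 4, 14.2 and 16.3 FPKM on day 7 and 17.4 and 15.3 FPKM on day 10. All 6 libraries of days 4 to 10 lay below day 1, and the day 4 difference of -1.11 ± 0.203 (adjusted p = 0.000889) was called by limma. On days 7 and 10 limma gave -0.90 and -0.80, under the size called, while edgeR called Hbegf lower on both (log2 fold changes -1.10 and -1.26, adjusted p = 0.000462 and 5.73e-05). On day 14 Hbegf was 76.5 and 76.8 FPKM, above every other library of the series. The difference from day 10 was 2.17 ± 0.203 (adjusted p = 1.27e-06), a 4.69-fold higher mean. Against day 1 it was 1.36 (adjusted p = 4.92e-05), while edgeR gave a log2 fold change of 0.98 (adjusted p = 0.000499), just under 2-fold.

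Hbegf was back at 30.3 and 30.9 FPKM on day 17, a difference from day 14 of -1.30 ± 0.203 (adjusted p = 0.000158). It was 32.7 and 29.2 FPKM on day 21, and these 4 libraries bordered or overlapped those of day 1. The pre-NPCs had 10.6 and 14.7 FPKM, 2.44-fold less than day 21 (difference -1.24 ± 0.203, adjusted p = 0.000204). In giNPC P6 the libraries had 12.1 and 22.2 FPKM, a wider gap than in any other group, and enclosed the Brain-NPC libraries at 17.7 and 16.5 FPKM. Teratoma had 8.32 and 9.95 FPKM, lower than giNPC P6 by 0.79 on the log2(FPKM + 1) scale, which was not called by limma. edgeR called this gene lower there (log2 fold change -1.17, adjusted p = 8.03e-05, with 42.6% of all genes called), and without replicate 1 of giNPC P6 limma did too.

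Tgfa, which encodes TGF-alpha, was nearly silent at the start and peaked on day 17. It lies on chromosome 6 (86145245 to 86225443, mm9). Tgfa was 0.145 and 0.113 FPKM on day 1, 0.0903 and 0.139 FPKM on day 4 and 0.269 and 0.195 FPKM on day 7. It then stepped up to 0.967 and 1.14 FPKM on day 10, 6.77 and 7.24 FPKM on day 14 and 20.02 and 19.2 FPKM on day 17. From day 7 to day 17 no 2 of these days overlapped. The day 10 difference from day 1 of 0.86 was under the size called, while edgeR called it (log2 fold change 2.45, adjusted p = 1.8e-05). The step from day 10 to day 14 was 1.96 ± 0.105 (adjusted p = 6.36e-09) and that from day 14 to day 17 was 1.36 ± 0.105 (adjusted p = 2.42e-07), a 2.80-fold higher mean. On day 21 Tgfa was 4.57 and 4.36 FPKM, 4.39-fold below day 17 (difference -1.91 ± 0.105, adjusted p = 3.55e-08).

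Tgfa stayed near that level afterwards. The pre-NPCs had 4.84 and 6.14 FPKM, giNPC P6 4.76 and 6.02 FPKM and Brain-NPCs 5.94 and 6.07 FPKM, and the 3 groups overlapped. The differences of pre-NPCs from day 21 and of giNPC P6 from pre-NPCs and from Brain-NPCs were 0.24, -0.02 and -0.14, and did not pass the test. Teratoma, at 4.00 and 4.44 FPKM, overlapped day 21. The neural progenitor marker sum, most of which was Fabp7, rose over the same days, from 27.7 to 46.5 FPKM on day 1 to 2406 to 2416 FPKM on day 10, 4830 to 4894 FPKM on day 14 and 6022 to 6157 FPKM on day 17. On day 21 the marker sum was 3708 to 3968 FPKM. From day 17 to day 21 Fabp7 went from 5873 and 5675 FPKM to 3608 and 3369 FPKM, and Hes5 was lower in both libraries too, while Sox2, Pax6, Nes, Msi1 and Prom1 were higher in both. Sox2, for example, went from 121 and 142 FPKM to 178 and 156 FPKM. The part of cell composition in the Tgfa levels was not tested.

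Nrg1, which encodes neuregulin, the ligand of ErbB3 and ErbB4, was a weakly expressed gene of the early days. The tables hold 1 Nrg1 transcript (chromosome 8, 32928500 to 33028675, mm9), while the gene is known for many isoforms, so the level is that of the annotated one. Nrg1 was 2.63 and 2.57 FPKM on day 1 and between 1.78 and 3.81 FPKM on days 4 to 10. On day 14 it was 1.42 and 1.26 FPKM and on day 17 it was 0.181 and 0.306 FPKM. The day 17 libraries were below all earlier ones, with a difference from day 1 of -1.54 ± 0.147 (adjusted p = 4.32e-07). edgeR also called Nrg1 lower on day 14 than on day 1 (log2 fold change -1.55, adjusted p = 0.0174) and on day 17 than on day 14 (-2.35, adjusted p = 0.00928), where limma gave -0.62 and -0.91. The fall passed the test on day 21 (-1.26), in giNPC P6 (-1.61) and in Brain-NPCs (-1.38) as well, with day 1 libraries shared. Teratoma had 1.37 and 1.41 FPKM and was called higher than giNPC P6 (1.02 ± 0.147, adjusted p = 2.19e-05), but with quantile normalisation the sign turned, to -0.45.

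Egf itself was close to undetectable. It lies on chromosome 3 (129380493 to 129458240, mm9). Its highest values were 0.627 and 0.649 FPKM in teratoma, from 51 and 35 reads, and its lowest were 0.0481 and 0.0166 FPKM on day 1, from 0 and 1 reads. In the other 18 libraries it had 4 to 22 reads. By edgeR, the only test it entered, Egf was called higher than day 1 on days 7, 14, 17 and 21, in giNPC P6 and in Brain-NPCs, with adjusted p values of 0.00157 to 0.0308, all against a day 1 total of 1 read. Of all genes, edgeR called 15.7%, 27.6%, 36.6%, 35.6%, 43.2% and 50.0% in these comparisons, in the order given. In giNPC P6 there were 17 and 12 reads and in Brain-NPCs 17 and 11.

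**Figure D3:**
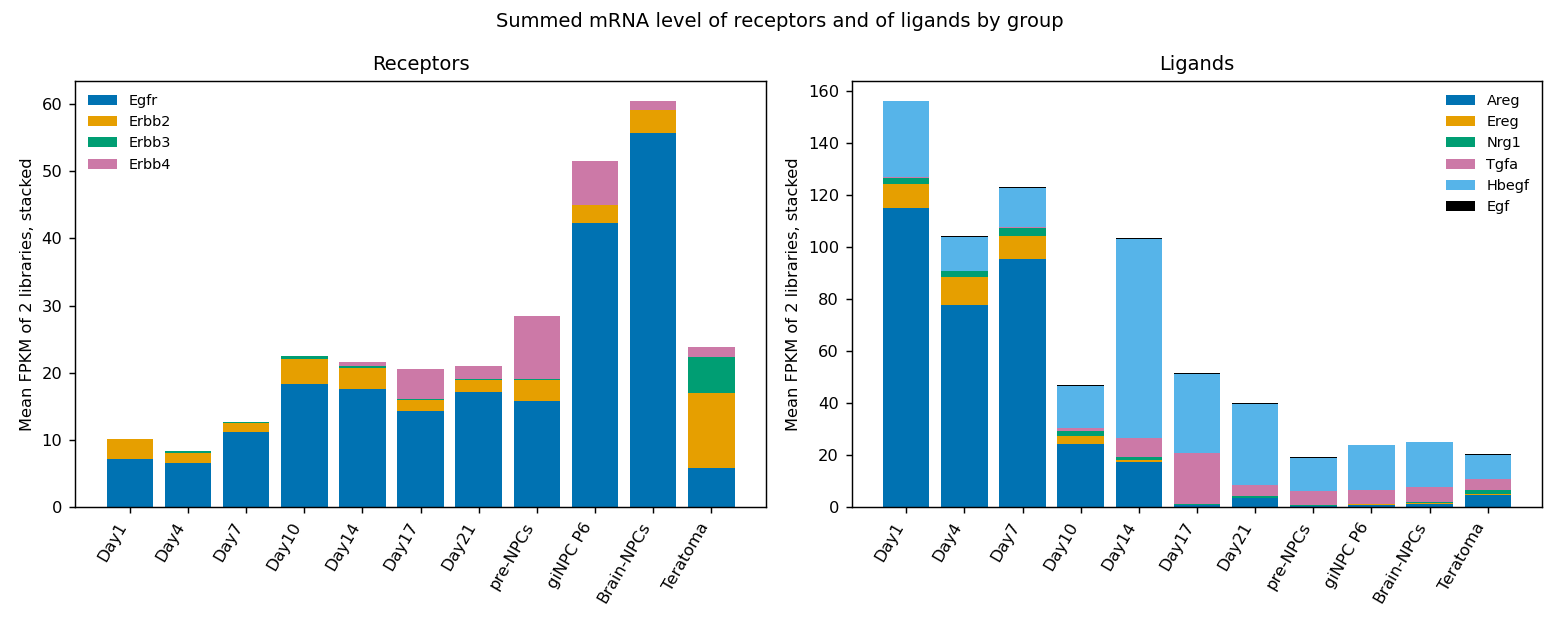
Stacked bars of the mean FPKM of 2 libraries per group, for the 4 receptors (left) and the 6 ligands (right), on linear axes from 0. The receptor bars are tallest in Brain-NPCs, and nearly all Egfr, while the ligand bars are tallest on day 1, where Areg is 73.7% of the sum, with a second rise on day 14, where Hbegf is 74.3%.

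Summed over genes, receptor mRNA was higher and ligand mRNA lower in the progenitors than on day 1. The 4 receptors summed to 9.87 and 10.5 FPKM on day 1, 20.9 and 20.1 FPKM on day 17, 48.3 and 54.7 FPKM in giNPC P6 and 59.7 and 61.1 FPKM in Brain-NPCs. The 6 ligands summed to 158 and 154 FPKM on day 1, 46.6 and 46.9 FPKM on day 10, 103 and 103 FPKM on day 14, 51.3 and 51.6 FPKM on day 17, 18.1 and 29.9 FPKM in giNPC P6 and 26.0 and 24.3 FPKM in Brain-NPCs. The sum of the 6 ligands exceeded that of the 4 receptors on every day of induction. It was below the receptor sum in pre-NPCs, giNPC P6, Brain-NPCs and teratoma. Other ligands of the family are not in these sums. In teratoma the 6 ligands summed to 19.7 and 21.2 FPKM and the 4 receptors to 23.5 and 24.1 FPKM. Btc had 1.317 and 1.055 FPKM there, Nrg2 1.27 and 1.35 FPKM and Nrg3 1.78 and 1.54 FPKM. The order in teratoma thus depends on which ligands are counted. These sums are descriptions of the FPKM levels and were not tested.

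The make-up of each sum changed too. Areg made up 73.7% of ligand FPKM on day 1 and 51.6% on day 10. Hbegf took 74.3% on day 14. On day 17 Hbegf was 59.5% and Tgfa 38.1%. In giNPC P6 the shares were 70.4% for Hbegf and 23.2% for Tgfa, and in Brain-NPCs 68.1% and 23.9%. Among receptors, Egfr was 70.8% on day 1, 82.5% in giNPC P6 and 92.1% in Brain-NPCs, and Erbb4 was largest in pre-NPCs at 33.5%. In teratoma Erbb2 made up 46.9%, Egfr 24.3% and Erbb3 22.6%.

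**Figure D4:**
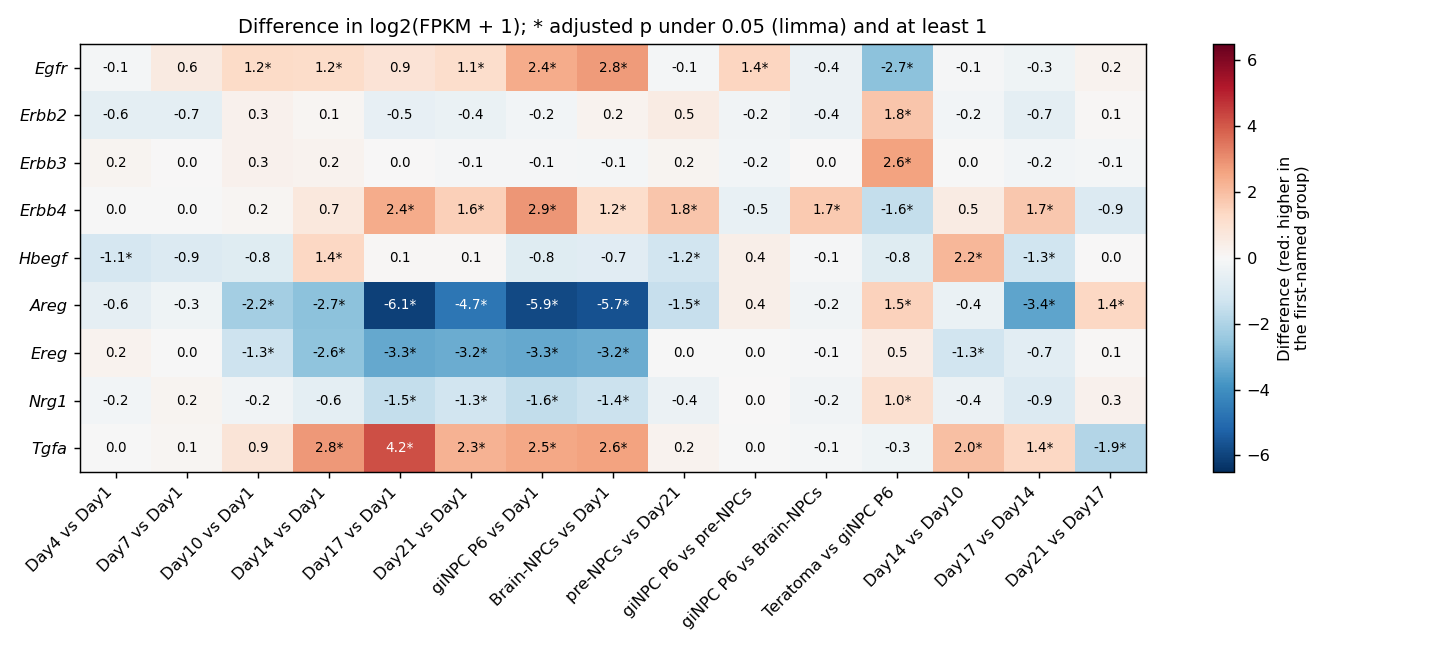
Differences in log2(FPKM + 1) for the 9 genes tested (rows) in 15 comparisons (columns), red where the first-named group is higher and blue where it is lower. A star marks a gene called by limma. Areg and Ereg carry stars for lower levels from day 10 against day 1, with Areg reaching -6.08 on day 17, and Tgfa stars for higher levels from day 14, reaching 4.19.

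The number of genes called was set against the share called among all 15659 genes. Against day 1, 1 of 9 was called on day 4 (Hbegf, lower), where 6.95% of all genes were called higher and 0.843% lower, 7.79% in all. On day 7 limma called 0 of 9, where 9.01% of all genes were called higher and 1.88% lower, 10.9% in all. Of the 9, 3 (Egfr, Erbb2 and Hbegf) had an unadjusted p under 0.05 there, as they did after adjustment, with differences under the size called. edgeR called 3 of 10 on day 7 (Egf higher, Erbb2 and Hbegf lower) and 15.7% of all genes, and 4 of 10 on day 10 (Tgfa higher, Hbegf, Areg and Ereg lower) and 3141 of 14292 genes. On day 10 Egfr was called higher and Areg and Ereg lower, where 14.5% of all genes were called higher and 2.62% lower, 17.1% in all. On day 14 it was 3 higher (Egfr, Hbegf, Tgfa) and 2 lower (Areg, Ereg), where 15.7% of all genes were called higher and 6.95% lower, 22.6% in all. On day 17 it was 2 higher (Erbb4, Tgfa) and 3 lower (Areg, Ereg, Nrg1), where 19.3% of all genes were called higher and 10.5% lower, 29.8% in all. On day 21 Egfr joined those higher, for 6 of 9 in all, where 18.3% of all genes were called higher and 10.2% lower, 28.6% in all.

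Both giNPC P6 and Brain-NPCs had 6 of 9 called against day 1, with Egfr, Erbb4 and Tgfa higher and Areg, Ereg and Nrg1 lower. For giNPC P6 20.9% of all genes were called higher and 13.8% lower, 34.7% in all, and for Brain-NPCs 24.3% of all genes were called higher and 15.9% lower, 40.3% in all. All 8 comparisons against day 1 use the same 2 libraries of that day. edgeR called 9 of 10 in giNPC P6, with 43.2% of all genes, and 8 of 10 in Brain-NPCs, with 50.0%. These include Egf, against a day 1 total of 1 read, and Erbb3, at 6 and 1 reads on day 1 and 0 in the 4 progenitor libraries, so both rest on counts near the floor. edgeR also called Hbegf lower in giNPC P6 (log2 fold change -1.08, adjusted p = 0.000124), where limma gave -0.79.

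The later steps were compared group by group. Between day 10 and day 14 Hbegf and Tgfa were called higher and Ereg lower, where 2.91% of all genes were called higher and 8.54% lower, 11.5% in all. Between day 14 and day 17 Erbb4 and Tgfa were called higher and Areg and Hbegf lower, where 4.95% of all genes were called higher and 6.37% lower, 11.3% in all. Between day 17 and day 21 Areg was called higher and Tgfa lower, where 2.7% of all genes were called higher and 2.29% lower, 4.99% in all. In pre-NPCs against day 21 Erbb4 was higher and Areg and Hbegf lower, where 4.04% of all genes were called higher and 8.19% lower, 12.2% in all. Between pre-NPCs and giNPC P6, 1 of 9 was called (Egfr, higher in giNPC P6), where 6.87% of all genes were called higher and 5.89% lower, 12.8% in all. Leaving aside Erbb3, which had to differ, teratoma against giNPC P6 had Erbb2, Areg and Nrg1 higher and Egfr and Erbb4 lower, where 30.0% of all genes were called higher and 5.98% lower, 36.0% in all. The comparisons of giNPC P6 with pre-NPCs, Brain-NPCs and teratoma share the giNPC P6 libraries.

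**Figure D5:**
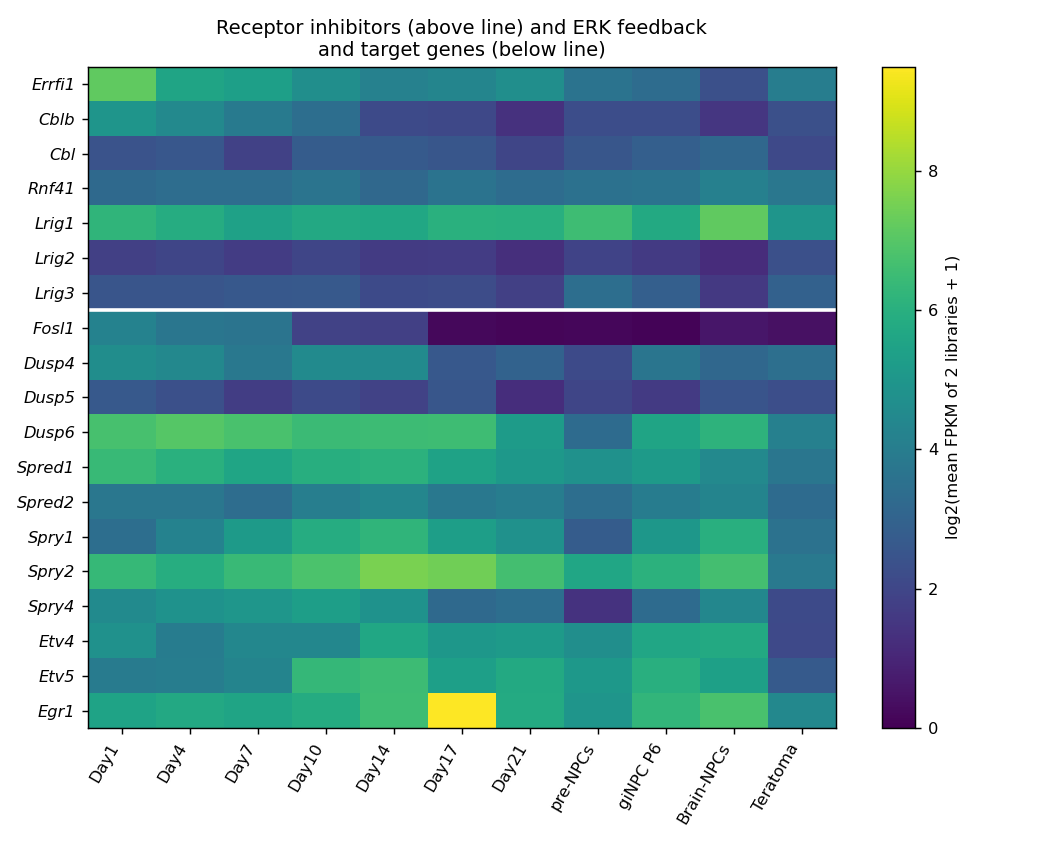
Heat map of log2(mean FPKM of 2 libraries + 1) in the 11 groups. Above the white line are 7 genes listed under receptor inhibitors and degradation, and below it 12 ERK feedback and target genes. Errfi1 is brightest on day 1, at a mean of 143 FPKM, and Egr1 on day 17, at 721 FPKM.

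Genes around the receptors were followed as a list of 45, of which 44 were in the tables and 42 were tested. Against day 1, 1 was higher and 1 lower on day 4, 2 and 2 on day 7, 4 and 4 on day 10, 7 and 5 on day 14, 8 and 8 on day 17, 5 and 12 on day 21, 5 and 13 in giNPC P6 and 8 and 11 in Brain-NPCs. In this order, 4.76%, 9.52%, 19.0%, 28.6%, 38.1%, 40.5%, 42.9% and 45.2% of the 42 were called, beside 7.79%, 10.9%, 17.1%, 22.6%, 29.8%, 28.6%, 34.7% and 40.3% of all genes. The median difference of the 42 was between -0.169 and 0.252 in these comparisons, where the median of all genes lay between 0.0226 and 0.241. Over the 15 comparisons 139 results of the list were called. All kept their sign with quantile normalisation, and 125 were still called. Of the 129 that edgeR tested, all kept their sign and 117 were called.

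Among the inhibitors, Errfi1, whose product MIG6 binds and blocks the ErbB kinase, was the first to fall. It was 142 and 144 FPKM on day 1 and 44.5 and 47.2 FPKM on day 4, a difference of -1.62 ± 0.0873 (adjusted p = 4.48e-09). Its libraries were at 40.3 and 39.7 FPKM on day 7, 25.2 and 25.1 FPKM on day 10, 16.8 and 16.9 FPKM on day 14, 9.25 and 9.14 FPKM in giNPC P6 and 4.17 and 3.92 FPKM in Brain-NPCs. Cblb, a ubiquitin ligase that marks the receptor for degradation, was 30.6 and 29.0 FPKM on day 1 and 1.65 and 1.41 FPKM on day 21 (difference -3.61 ± 0.0919, adjusted p = 4.02e-13). Of the 7 genes of this list, 2, Errfi1 and Cblb, were called lower on day 7 and at each later time against day 1, with the day 1 libraries shared. Of all genes, 1.88% were called lower on day 7, 2.62% on day 10, 6.95% on day 14, 10.5% on day 17, 10.2% on day 21, 13.8% in giNPC P6 and 15.9% in Brain-NPCs. Cblb was 14.6 and 13.1 FPKM on day 7, 3.63 and 3.17 FPKM on day 14 and 3.39 and 3.02 FPKM on day 17. Without replicate 2 of day 7, Cblb was lower by 0.99 on day 7, just under the size called. Lrig1, which promotes loss of the receptor, was 144 and 146 FPKM in Brain-NPCs and 42.2 and 66.1 FPKM in giNPC P6 (difference -1.44 ± 0.171, adjusted p = 1.96e-05). Lrig3 went the other way between these groups, at 6.51 and 6.06 FPKM in giNPC P6 and 2.24 and 1.79 FPKM in Brain-NPCs (1.28 ± 0.18, adjusted p = 7.89e-05). The action of Lrig3 on the receptors was not tested. Lrig3 was also higher in pre-NPCs, at 12.6 and 7.14 FPKM, than on day 21, at 2.18 and 2.75 FPKM (1.61 ± 0.18, adjusted p = 7.54e-06). Errfi1 was also called higher in giNPC P6 there, by 1.02 (adjusted p = 1.04e-06), but not with quantile normalisation or by any count-based test, whose values were 0.90 to 0.99, nor without replicate 2 of Brain-NPCs, at 0.98.

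Of the 5 other ligands, 3 were tested. Btc, which encodes the EGFR ligand betacellulin, was 4.46 and 5.10 FPKM on day 1, 1.09 and 0.766 FPKM on day 10 and 0.0323 and 0.146 FPKM on day 17, and was called lower from day 10 on. Nrg2, another neuregulin, was 0 and 0.0287 FPKM on day 1 and 1.88 and 2.12 FPKM on day 14, and was called higher from day 14 on. Nrg3 was 1.78 and 1.54 FPKM in teratoma, 0 in both giNPC P6 libraries and at most 0.234 FPKM in any other library. It passed the filter only through teratoma and had to differ there, so its difference of 1.41, which was 0.08 with quantile normalisation, is given as a description.

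Among the 5 genes of ligand release, Rhbdf2, which carries the protease ADAM17 to the cell surface, was 2.77 and 3.01 FPKM on day 1 and 7.19 and 12.4 FPKM on day 4, a rise of 1.43 ± 0.19 (adjusted p = 4.92e-05). Its libraries on day 4 did not overlap day 1. On day 7 Rhbdf2 was 6.85 and 8.07 FPKM, higher than day 1 by 1.12 (adjusted p = 0.000327), or by 0.86 with quantile normalisation, under the size called. It was 4.83 and 4.56 FPKM on day 10 and 0.633 and 1.40 FPKM on day 14, a difference of -1.52 ± 0.19 (adjusted p = 2.05e-05). Rhbdf2 was 1.06 and 1.19 FPKM in pre-NPCs and 0.0260 and 0.0226 FPKM in giNPC P6, called lower in the latter by limma (-1.05) but not with quantile normalisation (-0.89). In teratoma it was 4.15 and 3.99 FPKM, 2.31 ± 0.19 above giNPC P6 (adjusted p = 5.08e-08).

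Adam12, a metalloprotease that can release HB-EGF, was 2.10 and 2.81 FPKM on day 1, 21.6 and 20.7 FPKM on day 10 and 19.4 and 21.8 FPKM on day 14. It was 5.49 and 5.30 FPKM on day 17, a difference from day 14 of -1.75 ± 0.168 (adjusted p = 1.91e-06), over the step at which Hbegf also fell. Between day 10 and day 14, when Hbegf rose, the Adam12 libraries overlapped. A link between Adam12 and Hbegf levels was not tested. Brain-NPCs had 29.6 and 29.5 FPKM of Adam12, and giNPC P6 had 19.3 and 11.99 FPKM.

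Of the 15 tested genes of the adaptors and the Ras-ERK cascade, 1 was higher (Gab1) and 1 lower (Shc1) in giNPC P6 than on day 1, where 34.7% of all genes were called. Days 14 and 21 against day 1 called the same pair. Gab1, an adaptor that links the receptor to PI3K, was 2.82 and 3.35 FPKM on day 1, 25.1 and 25.0 FPKM on day 17, 17.1 and 17.7 FPKM on day 21 and 19.9 and 24.7 FPKM in giNPC P6, and was called higher from day 10 on. Shc1, an adaptor that links it to Ras, was 38.5 and 41.6 FPKM on day 1, 27.1 and 25.9 FPKM on day 10 and 8.02 and 7.56 FPKM on day 14 (day 14 against day 10, -1.65 ± 0.137, adjusted p = 4.10e-07).

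The 12 ERK feedback and target genes moved in both directions. Against day 1, 2 of them (Etv5 and Spry1) were called higher on day 21 and in giNPC P6. The same 6 (Fosl1, Dusp4, Dusp5, Dusp6, Spred1 and Spry4) were called lower in both. Of all genes, 18.3% were called higher and 10.2% lower on day 21, and 20.9% and 13.8% in giNPC P6. In Brain-NPCs 3 were higher (Spry1, Etv5 and Egr1) and 3 lower (Fosl1, Spred1 and Dusp4). There 24.3% of all genes were called higher and 15.9% lower. Egr1, an immediate early transcription factor, was 44.6 and 45.4 FPKM on day 1, 85.2 and 102 FPKM on day 14, 654 and 788 FPKM on day 17 and 53.0 and 56.9 FPKM on day 21. The day 17 libraries stood above all others, 2.93 ± 0.121 above day 14 (adjusted p = 1.04e-09) and 3.69 above day 21. This is the day on which Tgfa was highest, and a link between Egr1 and Tgfa was not tested. Of the 12 genes, 1 (Egr1) was called higher on day 17 than on day 14, and 4 were lower (Dusp4, Fosl1, Spry4 and Etv5). Of all genes, 4.95% were called higher and 6.37% lower in this step. Fosl1, an AP-1 subunit, was 17.8 and 17.6 FPKM on day 1, 2.55 and 2.71 FPKM on day 10 and 0.220 and 0.0724 FPKM on day 17. No library of day 21, giNPC P6 or Brain-NPCs had more than 0.519 FPKM of Fosl1. Spry1, an inhibitor of receptor signalling to ERK, was 9.91 and 9.90 FPKM on day 1, 34.9 and 35.4 FPKM on day 7, 60.9 and 54.1 FPKM on day 10 and 72.7 and 74.6 FPKM on day 14, a rise of 2.78 ± 0.201 against day 1 (adjusted p = 3.50e-08). It was 60.2 and 64.7 FPKM in Brain-NPCs.

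Etv4 and Etv5 are transcription factors of the ETS family that ERK signalling induces. Etv5 was 13.1 and 15.6 FPKM on day 1 and 56.3 and 49.6 FPKM on day 21, 1.81 ± 0.155 higher (adjusted p = 1.45e-07). Between these days Etv5 was higher still, at 76.75 and 83.1 FPKM on day 10 and 84.2 and 95.4 FPKM on day 14. On day 17 it was 40.6 and 39.5 FPKM, called lower than on day 14. Etv4 was 20.5 and 19.95 FPKM on day 10 and 47.1 and 52.4 FPKM on day 14, 1.26 ± 0.183 higher (adjusted p = 8.87e-05). The Etv4 rise was over the step at which Hbegf peaked. In Brain-NPCs, Etv4 was 54.4 and 52.8 FPKM and Hbegf 17.7 and 16.5 FPKM. A link between the levels of Etv4 and Hbegf was not tested. Dusp4, a phosphatase of ERK and related kinases, was 21.2 and 23.1 FPKM on day 14 and 4.998 and 5.16 FPKM on day 17 (-1.93 ± 0.264, adjusted p = 5e-05). Dusp5, a nuclear ERK phosphatase, was 4.45 and 5.31 FPKM on day 17 and 1.97 and 0.807 FPKM on day 21 (-1.34 ± 0.33, adjusted p = 0.0083). Without replicate 2 of day 17 or of day 21 the Dusp5 fall was no longer called, at -1.23 (adjusted p = 0.0571) and -0.98 (adjusted p = 0.0988).

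Between the pre-NPC clusters and the line, 5 of these 12 genes were higher in giNPC P6 (Dusp6, Spry1, Spry4, Dusp4 and Egr1), where 6.87% of all genes were called higher. The median difference of the 12 was 0.883, against 0 for all genes. Dusp6, the ERK phosphatase, was 11.1 and 6.96 FPKM in pre-NPCs and 51.5 and 39.3 FPKM in giNPC P6 (2.23 ± 0.162, adjusted p = 1.24e-07). Spry1 was 6.56 and 4.86 FPKM in pre-NPCs and 41.2 and 22.1 FPKM in giNPC P6 (2.23 ± 0.201, adjusted p = 1.01e-06). Spry4 was lower in pre-NPCs, at 1.56 and 1.63 FPKM, than on day 21, at 10.2 and 9.52 FPKM (-2.07 ± 0.161, adjusted p = 3.03e-07), as were Spry1, at 26.2 and 28.0 FPKM on day 21, Dusp6 and Spry2, where 8.19% of all genes were called lower. The pre-NPC libraries are shared by these comparisons. Spry4 was 11.4 and 6.35 FPKM in giNPC P6 and 20.03 and 20.3 FPKM in Brain-NPCs (-1.15 ± 0.161, adjusted p = 7.76e-05), but without replicate 2 of giNPC P6 the difference was -0.77, under the size called. In teratoma 8 of the 12 were lower than in giNPC P6, where 5.98% of all genes were called lower, with a median difference of -1.40 against 0.175 for all genes, led by Etv4 at 3.81 and 2.76 FPKM against 36.7 and 60.3 FPKM and Etv5 at 5.81 and 5.08 FPKM against 73.4 and 51.4 FPKM.

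The genes with the profile most like each receptor or ligand were sought by Pearson's r over the 11 group means of log2(FPKM + 1), as a description over groups that form a time course and so are not independent. For Egfr they were Chst7 (r = 0.943), Strada (0.935) and Srebf2 (0.933). For Erbb4 they were 5930412G12Rik (0.988), Shisa9 (0.977) and Kcnn2 (0.971), all highest in pre-NPCs. For Areg they were P4hb (0.985), Eif1a (0.984) and Ccl2 (0.979), and for Ereg they were Col24a1 (0.994), Mmp1b (0.992) and Bnc1 (0.990). For Tgfa they were Omg (0.967), Myt1 (0.967) and Sox5 (0.963), all highest on day 17, with Omg at 67.3 FPKM. Hbegf had Mphosph6 (0.933), 2700029M09Rik (0.904) and Pus7 (0.888), all highest on day 14. Nrg1 had Vasp (0.980), Kcne4 (0.979) and Tnfaip2 (0.978). Erbb2 had Bcl11a (0.943), Crybb3 (0.939) and Nup62cl (0.936), and Erbb3 had Ppbp (0.996), Nefh (0.994) and Lrrc34 (0.994), all highest in teratoma.

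Ordered by mean level, neighbouring groups were often not apart. Of the 10 steps between neighbours, both libraries of the higher group exceeded both of the lower in 4 for Egfr, 3 for Erbb2, 4 for Erbb3, 7 for Erbb4, 5 for Egf, 5 for Hbegf, 6 for Areg, 5 for Ereg, 4 for Nrg1 and 6 for Tgfa. For Egfr the order below giNPC P6 was day 10, day 14, day 21, pre-NPCs and day 17, and only day 17 was apart from the next, day 7. For Erbb4 it was pre-NPCs, giNPC P6, day 17, day 21 and teratoma, each apart from the next until teratoma, which overlapped Brain-NPCs.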

How the data were processed

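The 22 libraries were grouped by their labels. The authors deposited, for each library, whole-number read counts per RefSeq transcript and FPKM per transcript, per the file headers. The submitters' processing notes name TopHat2 2.0.12, the mm9 genome, Cufflinks 2.2.1, HTSeq 0.6.0 and edgeR, but no strand setting. Counts and FPKM were summed by gene symbol, and starts are printed 1-based. Reads shared by overlapping transcripts are missing from the counts, so limma 3.58.1 (R 4.3.3) was run on log2(FPKM + 1), with genes of at least 1 FPKM in at least 2 libraries, all 22 libraries in 1 fit, 1 mean per group and 11 residual degrees of freedom, two-sided. edgeR 4.0.16 (quasi-likelihood, TMM, filterByExpr) and DESeq2 1.42.0 on counts were alternatives, beside a pseudocount of 0.1, no filter, quantile normalisation, a replicate block and leaving out each library. With counts from 3084428 reads per library upwards, a count of 0 allows up to 3 reads, which covers counting error only. The 10 genes, the 45 pathway genes and the marker lists were chosen with earlier results of these data known. Of the pathway genes, the text gives values for the 2 with the largest rise and the 2 with the largest fall among those called in a comparison, and further values of those genes and of Btc and Nrg2, whose values were singled out after they were seen. Likeness was given for genes whose highest group mean was at least 1 FPKM. The comparisons of day 14 with day 10, day 17 with day 14 and day 21 with day 17 were added after the values were seen. Both tests were checked on simulated counts for day 21 against day 1, with as many genes raised as lowered. Shifts of all genes and reads shared by transcripts were not part of that check.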

Additional observations from a re-analysis of the deposited data

How the results depend on the processing

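Of the 52 differences of the 10 genes called by limma, other settings gave 395 values with the same direction and call, 20 that kept the direction but fell short of the threshold, and 1 that turned, Nrg1 in teratoma against giNPC P6, at -0.45 with quantile normalisation. The 20 were Egfr on days 10, 14 and 21 and Hbegf on day 14 against day 1 and Areg in teratoma, whose values stand in the report. Leaving out 1 library at a time kept 1141 such results and lost 1, Areg on day 21 against day 17. The number of genes called on day 4 against day 1 was 2, against 1, with edgeR RLE factors, edgeR without a filter and DESeq2. On day 7 it was 3 with edgeR by TMM or RLE and 2 with edgeR without a filter and DESeq2, against 0. On day 10 it was 5 with a pseudocount of 0.1, against 3, and for giNPC P6 against pre-NPCs it was 2 with edgeR RLE factors, edgeR without a filter and DESeq2, against 1. Without single replicates the number ranged from 1 to 2 for day 21 against day 17, from 5 to 7 for teratoma against giNPC P6 and from 6 to 7 for giNPC P6 against day 1, and it did not move in the other 12 comparisons. It was 5 without either teratoma library, when Erbb3 no longer passed the filter, 7 without replicate 1 of giNPC P6 and 7, against day 1, without replicate 2 of giNPC P6. The cause of the other changes was not tested. Depth limits Egf and Erbb3, which had at most 22 reads in any library outside teratoma.

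Over all genes, a pseudocount of 0.1 called 1835 on day 4 (against 1220), 2893 on day 7 (1706) and 4121 on day 10 (2675) against day 1, 3163 for pre-NPCs against day 21 (1915), 3219 for giNPC P6 against pre-NPCs (1998), 2650 for giNPC P6 against Brain-NPCs (1563), 2707 for day 14 against day 10 (1794), 2858 for day 17 against day 14 (1772) and 1435 for day 21 against day 17 (781). For giNPC P6 against Brain-NPCs edgeR called 2376 with TMM, 2369 with RLE and 2545 without a filter, and for day 21 against day 17 it called 1207 without a filter. The share of calls that were higher against day 1 was 84.7% on day 10 by limma, 58.7% with quantile normalisation and 69.9% by edgeR. The same 3 shares were 82.7%, 69.1% and 74.4% on day 7, 69.2%, 49.3% and 56.3% on day 14, 64.8%, 49.0% and 53.2% on day 17, 64.1%, 49.2% and 55.1% on day 21, and 60.2%, 50.0% and 53.2% in giNPC P6. They were 83.4%, 43.7% and 75.4% in teratoma against giNPC P6, 33.1%, 44.6% and 46.8% for pre-NPCs against day 21, and 53.8%, 50.5% and 41.6% for giNPC P6 against pre-NPCs. With a replicate block the numbers of the 10 genes called were unchanged, for example 6 for giNPC P6 against day 1. Over 55 pairs of groups, deviations of same-numbered libraries correlated between -0.261 and 0.281 (median 0.0295, 9 pairs over 0.1), so the numbers were not taken to pair libraries.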
